A study of Homo sapiens with 12 samples.

Results

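Transcripts of 40 genes of the Fanconi anemia pathway, homologous recombination, mismatch repair and the replication checkpoint were followed in 2 melanoma cell lines treated with the RAF inhibitor vemurafenib. The genes were taken by name, as rows of the expression tables whose symbol was in a fixed list of 40. That list was drawn up with earlier results of these data known, so the choice may not be independent of the values. Of the list, 40 of 40 were found among the 23273 genes listed for each line. All 40 reached a mean of 1 FPKM (a read count scaled to transcript length and to the size of the library) in at least 1 group of COLO858 and of MMACSF, so 40 of 40 were tested in both lines. The lines are established, BRAF-mutant and vemurafenib-sensitive, and each is a single line, so no result extends to melanoma cells in general. Cells were given DMSO, the vehicle, or 0.2 μM vemurafenib for 24 or 48 h, with 2 libraries in each of 6 groups and 12 libraries in all. The DMSO libraries carry no time in their labels, so the 24 and 48 h libraries of a line share 1 pair of DMSO libraries and their comparisons are not independent. Per the labels the replicates are plates of cells, with nothing said of separate cultures, so p-values measure only the spread between these samples, which may be technical.

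Fanconi proteins act where a replication fork meets a crosslink between the DNA strands. A core complex works as a ubiquitin ligase, it attaches a single ubiquitin to the FANCD2 and FANCI pair, and nucleases then open the lesion so that homologous recombination can mend the break. In recombination BRCA1, PALB2 and BRCA2 prepare the resected strand for its search of the sister copy, and the BLM helicase with RMI1 and RMI2 takes apart the joined molecules. Mismatch repair corrects replication errors, and the ATR and CHEK1 checkpoint holds the cell cycle while forks are repaired. Transcripts of many of these genes are known to be most abundant in S and G2 phases of cycling cells.

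The deposited values hold no read counts, so the depth of each library is unknown and no counting interval can be given. Between 11679 and 11972 genes per library were at or above 1 FPKM, and the Pearson correlation of log2(FPKM + 1) across the tested genes between the replicates of a group was 0.915 to 0.941. Of 8 outputs of MAPK signaling, such as DUSP6, 7 were past the threshold and lower than in DMSO in each of the 4 comparisons of drug with DMSO. Among 7 melanocyte markers, SOX10 was at 160 to 453 FPKM in COLO858, but the pigment cell markers MLANA (0.299 to 0.725 FPKM) and TYR (0.282 to 1.21 FPKM) were near 0 there, and the summed level of the 7 was 699 to 4142 FPKM in COLO858 and 11160 to 17550 FPKM in MMACSF. Of the 7, DCT, PMEL and S100B were past the threshold and higher at both times in COLO858, DCT at both times in MMACSF, and MLANA and TYR at 48 h in MMACSF. The summed level of 8 markers of leukocytes, epithelium and endothelium was 1.12 to 5.10 FPKM per library, with CD3E and KRT5 at 0 in every library. LYZ, the 1 of the 8 that was tested, fell at 48 h in MMACSF from 3.25 and 4.38 FPKM to 0.680 and 0.455 FPKM. The noncoding RNA MIR4461 took 14.1% to 18.96% of the FPKM sum in the replicate 1 libraries and 25.8% to 43.4% in the replicate 2 libraries, and 27 to 35 of the 40 genes per group were higher in replicate 2. The part of this in the results was not tested.

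At 24 h in COLO858, 21 of the 40 repair genes fell and 0 rose (limma on log2(FPKM + 1), adjusted p threshold 0.01). Of all 12696 genes tested in that line, 5.71% were called lower and 4.11% higher. The 40 genes stood at a median of 28.7% of their DMSO mean, and 31 of 40 were below 50%. In MMACSF 10 of 40 fell at 24 h and 0 rose, against 3.60% of 12599 tested genes called lower and 2.22% called higher, and the median was 40.6% of DMSO. In bulk RNA a smaller share of cells expressing a gene and less RNA per cell cannot be told apart. The median log2 fold-change of the 40 was -1.38 in COLO858 and -0.93 in MMACSF, against 0.06 and 0.07 over all genes tested.

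At 48 h the counts were 0 in COLO858 and 14 in MMACSF. In COLO858 0 of 40 genes passed the limma threshold in either direction, whereas 4.73% of all tested genes were called lower and 4.74% higher. This 0 depended on the model, and with the replicate number as a block 17 of the 40 were called lower. Whether the replicate numbers pair the plates is not established. Without the block, 13 of the 40 had an unadjusted p under 0.05, against 39.3% of all tested genes. By direction these were 12 lower and 1 higher, against 2603 and 2391 of all 12696 tested genes. A negative log2 fold-change was found for 36 of the 40, against 6470 of all tested genes. The median of the 40 was 71.1% of DMSO, 2 genes were below 50%, and the smallest adjusted p was 0.0135, for MND1. In MMACSF 14 of 40 fell at 48 h and 0 rose, against 5.41% called lower and 3.42% called higher among all tested genes. There the median was 40.3% of DMSO with 24 of 40 genes below 50%. Without regard to the test, 25 of the 40 genes were below both DMSO libraries in both libraries of all 4 drug groups, against 13.5% of the 11700 genes tested in both lines. In COLO858 33 genes at 24 h and 27 at 48 h lay below DMSO without overlap, against 29.0% and 31.4% of all tested genes. In MMACSF 33 genes did so at each time, against 25.8% of all tested genes after 24 h and 28.8% after 48 h.

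**Figure D1:**
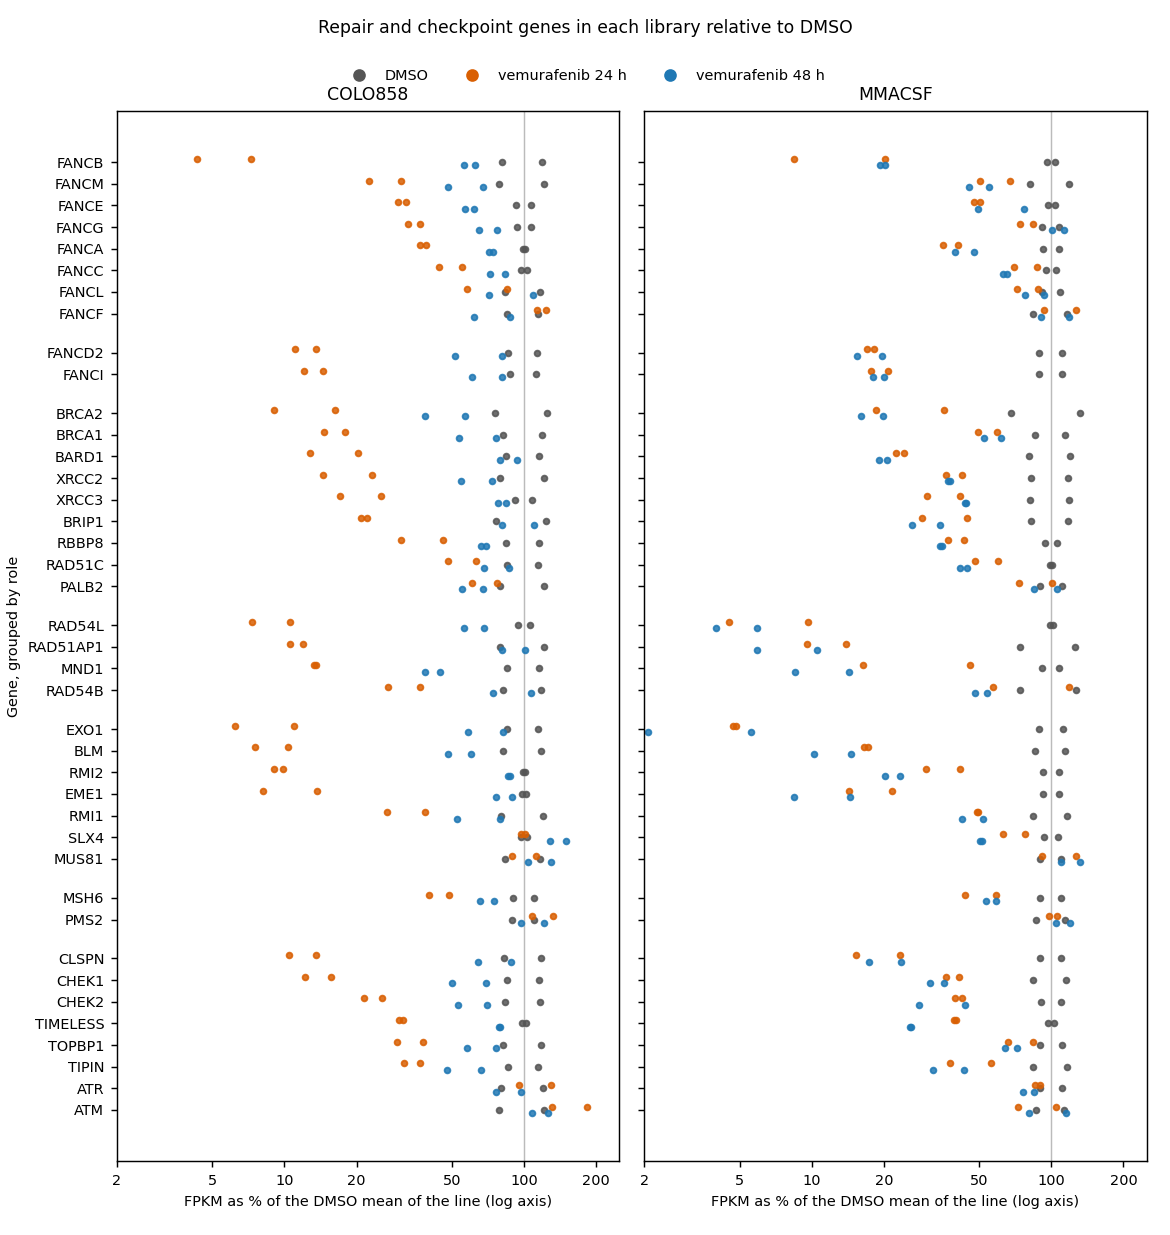
FPKM of each of the 40 genes in each of the 12 libraries as a percentage of the DMSO mean of its line, on a logarithmic axis, with genes grouped by role and 1 point per library. In COLO858 the 24 h points sit far left of the 48 h points for most genes, with medians of 28.7% and 71.1%, whereas in MMACSF the 2 drug times lie close together at 40.6% and 40.3%.

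The counts fell when any single library was left out, also one outside the comparison. Each such fit has a group of 1 library and less from which to estimate the spread, so the loss does not single out a library. In place of 21 calls at 24 h, COLO858 gave 2 without DMSO replicate 1, 1 without DMSO replicate 2 or either 24 h library, and 11 without either 48 h library. In place of 10 calls at 24 h, MMACSF gave 0 without either DMSO or either 24 h library and 1 without either 48 h library. In place of 14 calls at 48 h, MMACSF gave 0 without DMSO replicate 2 or 48 h replicate 1, 1 without DMSO replicate 1 or 48 h replicate 2, and 8 without either 24 h library. In such a fit the lone library is assumed to vary like the other groups. The median fold-change of the 40 genes kept its sign in all of these fits, between -1.56 and -1.26 at 24 h in COLO858, -1.06 and -0.79 at 24 h in MMACSF, and -1.13 and -0.84 at 48 h in MMACSF.

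Markers of replication moved alongside. Of 18 genes for replication and proliferation, such as MKI67 and the MCM helicase subunits, 18 were past the threshold and lower at 24 h in COLO858, 0 at 48 h in COLO858 (limma; 11 with an unadjusted p under 0.05) and 16 at each time in MMACSF. Their median log2 fold-changes in these 4 comparisons were -2.88, -0.60, -1.97 and -2.06, larger in size than those of the repair genes. MKI67, a marker of cycling cells, had 15.9 and 19.8 FPKM under DMSO, 2.47 and 2.91 FPKM at 24 h and 10.9 and 12.5 FPKM at 48 h in COLO858. In MMACSF it had 10.0 and 11.003 FPKM under DMSO, 1.04 and 1.37 FPKM at 24 h, and 0.0430 and 0.0852 FPKM at 48 h. The part of cell cycling in the results for the repair genes was not tested.

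Because many of the genes moved together, their promoters were searched for 3 kinds of motif that cell cycle genes are known to carry. RefSeq windows from 250 bases before to 50 bases after an annotated start (build GRCh38.p14) were given for 37 of the 40 genes, and FANCI, RMI2 and RAD54B had none. An E2F-type motif, TTTGGCGC or TTTCCCGC on either strand, was present for 7 of 37 genes (18.9%), against 2.75% of the 27305 genes in the table. A CHR-type motif, TTTGAA or TTCGAA on either strand, was present for 3 of 37 (8.11%), against 19.5% of all genes. The CCAAT box was present for 20 of 37 (54.1%), against 39.7% of all genes. A gene counted if any of its windows matched, and the 37 genes had 53 windows while the 27305 had 35116, so the shares are not strictly alike. A match is a run of letters and not a shown binding site, and these shares were not tested.

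The E2F-type matches are shown because a larger share of these genes than of all genes in the table held one, with the motif in capitals and 8 flanking bases on either side, each written 5′ to 3′ on the strand that holds the motif. CLSPN is at chr1:35769968-35769991 (plus strand), FANCC at chr9:95317740-95317763 (minus), FANCD2 at chr3:10026427-10026450 (minus) and MND1 at chr4:153344646-153344669 (minus). MSH6 is at chr2:47783140-47783163 (plus), TIPIN at chr15:66356736-66356759 (minus) and XRCC2 at chr7:152676105-152676128 (plus). In TIPIN the same motif also matches the other strand, overlapping the one shown. Of these 7 genes, CLSPN, FANCD2, MND1 and XRCC2 fell at 24 h in COLO858, and FANCC, MSH6 and TIPIN did not pass the threshold there.
CLSPN: gttcttgcTTTCCCGCccagccag
FANCC: gtcggaatTTTCCCGCgacgccgc
FANCD2: ttttcgacTTTCCCGCcaggcccg
MND1: cgtttgatTTTGGCGCcgactacg
MSH6: cccccagaTTTCCCGCcagcagga
TIPIN: cgcacggaTTTGGCGCcaaacgct
XRCC2: gactcaacTTTCCCGCcaccaacg

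For comparison, the 150 bases before the start are shown for EXO1 and RAD54L. These had the largest mean fall at 24 h over the 2 lines among genes with a window (log2 scale). FANCF and ATM are shown as well. Of the genes with a window that passed the threshold in no comparison within a line, they had the highest mean change at 24 h. EXO1 is at chr1:241848054-241848203 (plus strand), RAD54L at chr1:46247538-46247687 (plus), FANCF at chr11:22625824-22625973 (minus) and ATM at chr11:108222917-108223066 (plus), all in GRCh38.p14. Capitals mark a CCAAT box or its reverse complement in RAD54L and FANCF, and TTTGAA in ATM. The EXO1 window held none of the motifs searched, and both RAD54L, which fell, and FANCF, which passed in no comparison, carried CCAAT. The whole ATM window also held CCAAT, outside the bases shown.
EXO1: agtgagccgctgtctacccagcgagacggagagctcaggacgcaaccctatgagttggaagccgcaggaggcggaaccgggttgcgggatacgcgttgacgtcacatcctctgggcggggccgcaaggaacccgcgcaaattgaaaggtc
RAD54L: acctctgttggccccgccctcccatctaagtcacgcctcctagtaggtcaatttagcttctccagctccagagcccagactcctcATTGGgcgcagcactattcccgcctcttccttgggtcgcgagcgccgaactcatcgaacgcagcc
FANCF: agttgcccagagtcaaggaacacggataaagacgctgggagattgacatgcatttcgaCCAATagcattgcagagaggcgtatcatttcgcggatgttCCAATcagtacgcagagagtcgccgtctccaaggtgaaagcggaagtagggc
ATM: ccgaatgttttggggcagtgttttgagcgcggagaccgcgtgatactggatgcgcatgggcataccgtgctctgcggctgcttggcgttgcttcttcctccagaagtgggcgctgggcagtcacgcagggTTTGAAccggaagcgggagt

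The ubiquitinated pair fell in both lines at 24 h. FANCI (GRCh37 chr15:89787176-89860492) had the highest DMSO level of the 40 genes in COLO858, where it measured 33.3 and 42.8 FPKM under DMSO, 4.61 and 5.53 FPKM at 24 h and 23.1 and 30.8 FPKM at 48 h. In MMACSF, FANCI measured 23.0 and 28.6 FPKM under DMSO, 4.55 and 5.36 FPKM at 24 h and 4.62 and 5.15 FPKM at 48 h. The 24 h libraries lay below all DMSO libraries in both lines, and only in COLO858 did the 48 h values return to near the DMSO range without reaching it. The log2 fold-change at 24 h was -2.68 ± 0.22 (SE) in COLO858 (adjusted p = 0.00179) and -2.16 ± 0.17 in MMACSF (adjusted p = 0.00221), and in MMACSF it was -2.18 ± 0.17 at 48 h (adjusted p = 0.00158).

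FANCD2 (chr3:10068054-10143616), the partner of FANCI, measured 7.995 and 10.6 FPKM under DMSO, 1.02 and 1.26 FPKM at 24 h and 4.77 and 7.51 FPKM at 48 h in COLO858. In MMACSF its values were 8.49 and 10.6 FPKM under DMSO, 1.73 and 1.63 FPKM at 24 h and 1.48 and 1.89 FPKM at 48 h. No drug library of either line reached a DMSO library of that line. The fall at 24 h was -2.26 ± 0.25 on the log2 scale in COLO858 (adjusted p = 0.00389) and -1.97 ± 0.17 in MMACSF (adjusted p = 0.003), and at 48 h in MMACSF it was -1.97 ± 0.17 (adjusted p = 0.00232). UBE2T, the ubiquitin-conjugating enzyme that works with the core complex and is not among the 40, fell from 86.3 and 110 FPKM to 8.07 and 10.3 FPKM at 24 h in COLO858 (adjusted p = 0.000963).

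The core complex moved less evenly. Of its 8 genes, FANCA, FANCB, FANCE and FANCG fell at 24 h in COLO858, and 0 of 8 passed the threshold in MMACSF at either time. Over all tested genes 5.71% were called lower in COLO858 at 24 h, and 3.60% and 5.41% in MMACSF at 24 and 48 h. A count of 0 of 8 thus does not set these genes apart. The smallest adjusted p of the 8 in MMACSF was 0.01003 at 24 h and 0.0115 at 48 h. In COLO858 the median of the 8 was 36.4% of DMSO after 24 h and 72.0% after 48 h, and in MMACSF it was 68.6% and 63.6%. FANCA, a large subunit of the complex, went from 16.6 and 16.4 FPKM to 6.43 and 6.10 FPKM at 24 h in COLO858 (adjusted p = 0.00334). In MMACSF FANCA went from 9.22 and 7.85 FPKM to 3.02 and 3.48 FPKM at 24 h without passing the threshold. Its mean at 24 h was 37.95% of DMSO in COLO858 and 38.05% in MMACSF. FANCE and FANCG, the first of which binds FANCD2, were at 31.1% and 34.8% of DMSO in that comparison (adjusted p = 0.00385 and 0.00475), and FANCG was at 78.8% and 107% in MMACSF after 24 and 48 h. The lowest was FANCB, a scaffold subunit, at 5.79% of DMSO at 24 h in COLO858, where it went from 2.55 and 3.75 FPKM to 0.136 and 0.229 FPKM a change of -1.80 ± 0.19 on the log2 scale (adjusted p = 0.00344). In MMACSF FANCB had 1.21 and 1.32 FPKM under DMSO and 0.107 and 0.257 FPKM at 24 h without passing the threshold (adjusted p = 0.0153). These levels are low, and adding 1 FPKM before the logarithm makes the fitted change smaller than the ratio of the means. FANCL, the subunit with ligase activity, was at 71.4% to 90.3% of DMSO over the 4 drug groups, FANCC at 49.7% to 78.6%, and FANCM, the DNA translocase that recruits the complex, at 26.6% to 58.7%.

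Among the 9 genes for BRCA function and the early steps of strand exchange, BRCA1, BARD1, XRCC2 and XRCC3 fell at 24 h in COLO858. In MMACSF RBBP8 fell at 24 h, and RBBP8, BARD1 and RAD51C fell at 48 h. The share of all tested genes called lower was 5.71% in COLO858 at 24 h, and 3.60% and 5.41% in MMACSF at 24 and 48 h. BRCA1, a ubiquitin ligase that steers breaks toward recombination, measured 8.29 and 12.1 FPKM under DMSO and 1.49 and 1.81 FPKM at 24 h in COLO858 (log2 fold-change -2.06 ± 0.25, adjusted p = 0.00497). In MMACSF BRCA1 measured 16.2 and 21.8 FPKM under DMSO and 9.43 and 11.2 FPKM at 24 h, again without overlap, but did not pass the threshold (adjusted p = 0.0392). BARD1, the obligate partner of BRCA1, went from 5.75 and 7.92 FPKM under DMSO to 0.872 and 1.39 FPKM at 24 h and was at 5.43 and 6.40 FPKM at 48 h in COLO858, overlapping the DMSO range at 48 h. In MMACSF BARD1 went from 2.75 and 4.06 FPKM under DMSO to 0.830 and 0.769 FPKM at 24 h and 0.647 and 0.699 FPKM at 48 h, all below DMSO, and passed the threshold at 48 h only (-1.38 ± 0.19, adjusted p = 0.00797).

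RAD51C, which supports strand exchange, had the highest DMSO level of the 40 genes in MMACSF. It measured 39.8 and 40.4 FPKM under DMSO, 24.0 and 19.2 FPKM at 24 h, and 16.7 and 17.9 FPKM at 48 h there. Both drug pairs were below DMSO, and the 48 h value differed from it by -1.17 ± 0.14 on the log2 scale (adjusted p = 0.00567). In COLO858 it measured 18.6 and 25.2 FPKM under DMSO, 10.6 and 13.8 FPKM at 24 h and 14.9 and 18.9 FPKM at 48 h, and the 48 h pair overlapped the DMSO pair. XRCC2 and XRCC3, which also support strand exchange, were at 18.8% and 21.2% of DMSO after 24 h in COLO858 (adjusted p = 0.00871 and 0.00334), and at 36.0% to 43.95% in the drug groups of MMACSF without passing the threshold. RBBP8, which starts the resection of broken ends, was at 8.49 and 9.46 FPKM under DMSO, 3.88 and 3.33 FPKM at 24 h and 3.15 and 3.09 FPKM at 48 h in MMACSF, with adjusted p of 0.00828 and 0.00482. BRCA2, a mediator of strand exchange, was at 12.7% of DMSO at 24 h in COLO858 but had only 1.33 and 2.19 FPKM under DMSO, and it did not pass the threshold (adjusted p = 0.0156). PALB2, which joins BRCA1 to BRCA2, was at 61.3% to 95.3% of DMSO over the 4 drug groups and passed in none. BRIP1, a helicase that binds BRCA1, passed in none either, at 21.6% and 95.6% of DMSO in COLO858 and 36.7% and 30.3% in MMACSF.

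The 4 partner and motor proteins of strand exchange held some of the largest changes. RAD54L (chr1:46712133-46744152), a motor protein that drives strand invasion, measured 13.7 and 12.2 FPKM under DMSO, 0.942 and 1.37 FPKM at 24 h and 7.27 and 8.79 FPKM at 48 h in COLO858. In MMACSF RAD54L measured 6.82 and 7.03 FPKM under DMSO, 0.666 and 0.312 FPKM at 24 h and 0.275 and 0.407 FPKM at 48 h. It was thus under 1 FPKM in every drug library of MMACSF, whereas in COLO858 it was back above 7 FPKM at 48 h. The mean was 11.2-fold lower at 24 h in COLO858 (log2 fold-change -2.70 ± 0.18, adjusted p = 0.00116), 14.2-fold lower at 24 h in MMACSF (-2.42 ± 0.18, adjusted p = 0.00208) and 20.3-fold lower at 48 h in MMACSF (-2.56 ± 0.18, adjusted p = 0.0012).

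RAD51AP1 (chr12:4647964-4669213), which stimulates strand exchange, showed the widest split between the lines at 48 h after EXO1. It measured 9.49 and 14.5 FPKM under DMSO, 1.26 and 1.43 FPKM at 24 h and 9.72 and 12.1 FPKM at 48 h in COLO858. In MMACSF it was at 6.72 and 11.4 FPKM under DMSO, 0.864 and 1.25 FPKM at 24 h, and 0.536 and 0.948 FPKM at 48 h. The 48 h libraries of COLO858 fell inside the DMSO range, and all 4 drug libraries of MMACSF lay below its DMSO libraries, with 24 and 48 h overlapping. Its log2 fold-change at 24 h was -2.44 ± 0.23 in COLO858 (adjusted p = 0.00286) and -2.25 ± 0.28 in MMACSF (adjusted p = 0.0073), and at 48 h in MMACSF -2.50 ± 0.28 (adjusted p = 0.00451).

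MND1 and RAD54B behaved differently from these. MND1, known for its role in meiotic strand exchange, measured 12.4 and 16.9 FPKM under DMSO, 1.99 and 1.94 FPKM at 24 h and 5.65 and 6.55 FPKM at 48 h in COLO858. It fell at 24 h by 2.38 on the log2 scale (SE 0.19, adjusted p = 0.00179), and at 48 h it had the lowest percentage of DMSO of the 40 genes in that line, 41.7%. In MMACSF MND1 measured 4.28 and 5.04 FPKM under DMSO, 2.14 and 0.764 FPKM at 24 h and 0.669 and 0.397 FPKM at 48 h, a wide spread at 24 h and no overlap with DMSO, and it did not pass the threshold at 24 h (adjusted p = 0.0406) or 48 h (adjusted p = 0.0115). RAD54B, a relative of RAD54L, measured 2.79 and 4.77 FPKM under DMSO, 2.17 and 4.49 FPKM at 24 h and 1.81 and 2.03 FPKM at 48 h in MMACSF, where DMSO and 24 h overlapped. In COLO858 RAD54B measured 5.74 and 8.24 FPKM under DMSO, 1.89 and 2.56 FPKM at 24 h and 5.19 and 7.45 FPKM at 48 h, and passed in no comparison.

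The helicase, dissolution and nuclease genes were divided. Of 7, BLM, RMI2, EXO1 and EME1 fell at 24 h in COLO858, against 5.71% of all tested genes called lower. In MMACSF BLM, EXO1 and EME1 fell at 24 h, and these and RMI2 at 48 h, against 3.60% and 5.41%. RMI1, MUS81 and SLX4 passed in none of the comparisons within a line. EXO1 (chr1:242011269-242058450), an exonuclease of both end resection and mismatch repair, had the largest fall in MMACSF. It measured 10.1 and 12.7 FPKM under DMSO, 0.554 and 0.538 FPKM at 24 h and 0.237 and 0.639 FPKM at 48 h in MMACSF, and 7.70 and 10.3 FPKM, 0.561 and 0.991 FPKM, and 5.27 and 7.38 FPKM in the same groups of COLO858. All drug libraries were below DMSO, by little at 48 h in COLO858. The log2 fold-changes were -3.00 ± 0.21 at 24 h (adjusted p = 0.00181) and -3.12 ± 0.21 at 48 h (adjusted p = 0.00103) in MMACSF, and -2.49 ± 0.24 at 24 h in COLO858 (adjusted p = 0.00292).

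RMI2 (chr16:11343476-11475519), the small subunit of the BLM dissolution complex, had the largest fall at 24 h in COLO858 on the log2(FPKM + 1) scale, while by the ratio of mean FPKM it was 10.6-fold lower and FANCB, EXO1, RAD54L and BLM fell further. It measured 16.1 and 16.5 FPKM under DMSO, 1.61 and 1.48 FPKM at 24 h and 14.1 and 14.3 FPKM at 48 h in COLO858, and 4.57 and 5.38 FPKM, 2.07 and 1.496 FPKM, and 1.009 and 1.17 FPKM in the same groups of MMACSF. Replicates lay close together in COLO858, with a mean ± SD of 16.3 ± 0.302 FPKM under DMSO and 1.55 ± 0.0933 FPKM at 24 h (n = 2 each). The fall at 24 h in COLO858 was -2.77 ± 0.13 on the log2 scale (adjusted p = 0.000678), and it held without any single library (adjusted p 0.00454 to 0.00924). In MMACSF RMI2 passed the threshold at 48 h (-1.52 ± 0.18, adjusted p = 0.00501) and not at 24 h (adjusted p = 0.0138).

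BLM (chr15:91260577-91359396), the helicase lost in Bloom syndrome, measured 10.6 and 15.2 FPKM under DMSO, 0.974 and 1.34 FPKM at 24 h and 6.18 and 7.77 FPKM at 48 h in COLO858. In MMACSF it measured 6.34 and 8.46 FPKM under DMSO, 1.22 and 1.28 FPKM at 24 h and 0.756 and 1.08 FPKM at 48 h. Every drug library was below DMSO. The log2 fold-change at 24 h was -2.67 ± 0.23 in COLO858 (adjusted p = 0.00216) and -1.89 ± 0.19 in MMACSF (adjusted p = 0.00438). EME1, the regulatory partner of the MUS81 nuclease, measured 6.91 and 7.19 FPKM under DMSO, 0.573 and 0.962 FPKM at 24 h and 5.36 and 6.28 FPKM at 48 h in COLO858, and 6.81 and 7.94 FPKM, 1.06 and 1.60 FPKM, and 1.07 and 0.622 FPKM in MMACSF. No drug library of EME1 reached a DMSO library of its line. Its catalytic partner MUS81 was at 101% and 117% of DMSO in COLO858 and at 109% and 121% in MMACSF at 24 and 48 h. RMI1, the other RMI subunit, was at 32.7% to 66.1% over the 4 drug groups.

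**Figure D2:**
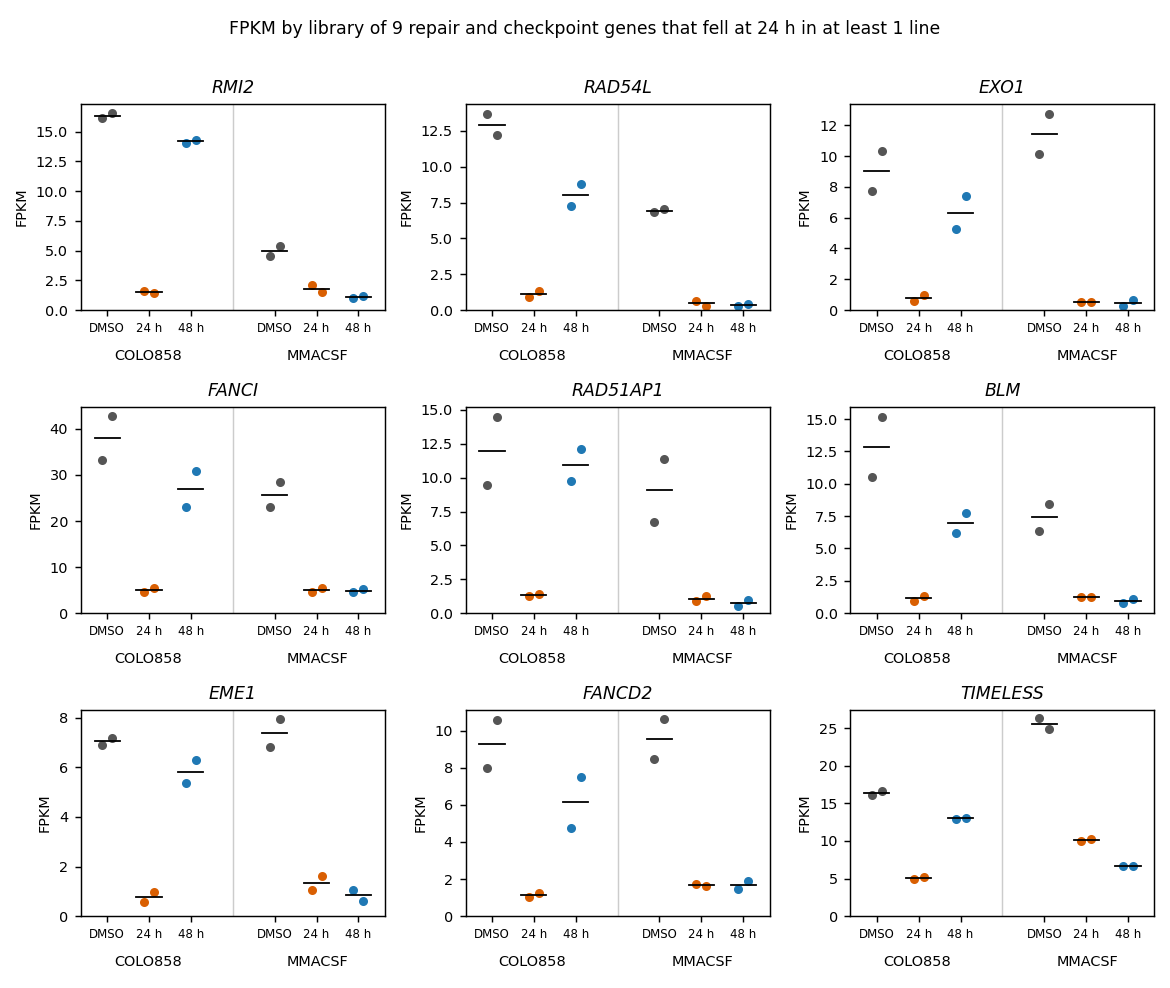
FPKM on linear axes that start at 0, with 1 point per library and the horizontal bar at the mean of the 2 libraries of a group, for RMI2, RAD54L, EXO1, FANCI, RAD51AP1, BLM, EME1, FANCD2 and TIMELESS. In COLO858 the 48 h points lie between the 24 h and the DMSO points or beside the DMSO points, whereas in MMACSF the 48 h points stay near or below the 24 h points, as for RAD54L with 7.27 and 8.79 FPKM against 0.275 and 0.407 FPKM.

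The 2 mismatch repair genes did not pass the threshold in any comparison within a line. At most 5.71% of all tested genes were called lower in a comparison with DMSO, so this does not set the 2 apart. MSH6, which recognizes mismatches, stood in COLO858 at 44.5% of DMSO after 24 h and 70.5% after 48 h, and in MMACSF at 51.1% and 56.1%, with adjusted p of 0.011 to 0.105. It had 31.1 and 38.0 FPKM under DMSO and 13.9 and 16.8 FPKM at 24 h in COLO858, without overlap. PMS2, which acts after a mismatch is recognized, was at 102% to 120% of DMSO over the 4 drug groups.

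Of the 8 checkpoint genes, at most 4 passed the threshold in a comparison with DMSO, and the upstream kinases ATR and ATM passed in none. CHEK1, CHEK2, CLSPN and TIMELESS fell at 24 h in COLO858, against 5.71% of all tested genes called lower. CLSPN and TIMELESS fell at 24 h in MMACSF, against 3.60%. CHEK1, CLSPN and TIMELESS fell at 48 h in MMACSF, against 5.41%. TIMELESS, a fork protection protein, measured 16.1 and 16.6 FPKM under DMSO, 4.95 and 5.14 FPKM at 24 h and 12.9 and 13.1 FPKM at 48 h in COLO858. In MMACSF it measured 26.3 and 24.9 FPKM under DMSO, 10.0 and 10.3 FPKM at 24 h and 6.62 and 6.61 FPKM at 48 h. The 6 groups of TIMELESS were narrow and did not overlap within a line. The log2 fold-changes were -1.53 ± 0.13 at 24 h in COLO858 (adjusted p = 0.00204), and -1.25 ± 0.12 and -1.81 ± 0.12 at 24 and 48 h in MMACSF (adjusted p = 0.00372 and 0.00102).

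CLSPN, the adaptor that lets ATR activate CHEK1, measured 3.61 and 5.17 FPKM under DMSO and 0.458 and 0.595 FPKM at 24 h in COLO858, and 4.04 and 4.95 FPKM and 0.687 and 1.05 FPKM in MMACSF. CHEK1, the effector kinase of ATR, was at 13.9% of DMSO at 24 h in COLO858 (adjusted p = 0.00358) and at 38.8% in MMACSF (adjusted p = 0.0154). CHEK2, the effector kinase of ATM, was at 23.6% of DMSO after 24 h in COLO858 (adjusted p = 0.00546) and at 41.0% and 35.7% in MMACSF without passing the threshold. TOPBP1, an activator of ATR, and TIPIN, the partner of TIMELESS, passed in no comparison, at 33.7% to 74.8% and 34.2% to 56.8% of DMSO. ATR, the kinase that senses stalled forks, was at 113% and 87.0% of DMSO in COLO858 and 87.7% and 80.5% in MMACSF. ATM, the kinase that responds to double-strand breaks, measured 1.78 and 2.77 FPKM under DMSO, 2.99 and 4.16 FPKM at 24 h and 2.46 and 2.87 FPKM at 48 h in COLO858, and both 24 h libraries were above DMSO without passing the threshold (adjusted p = 0.169). In MMACSF ATM ranged from 15.0 to 23.8 FPKM over the 6 libraries. The lines come in separate tables whose common scaling is not stated, so this gap in ATM level between them was not tested.

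**Figure D3:**
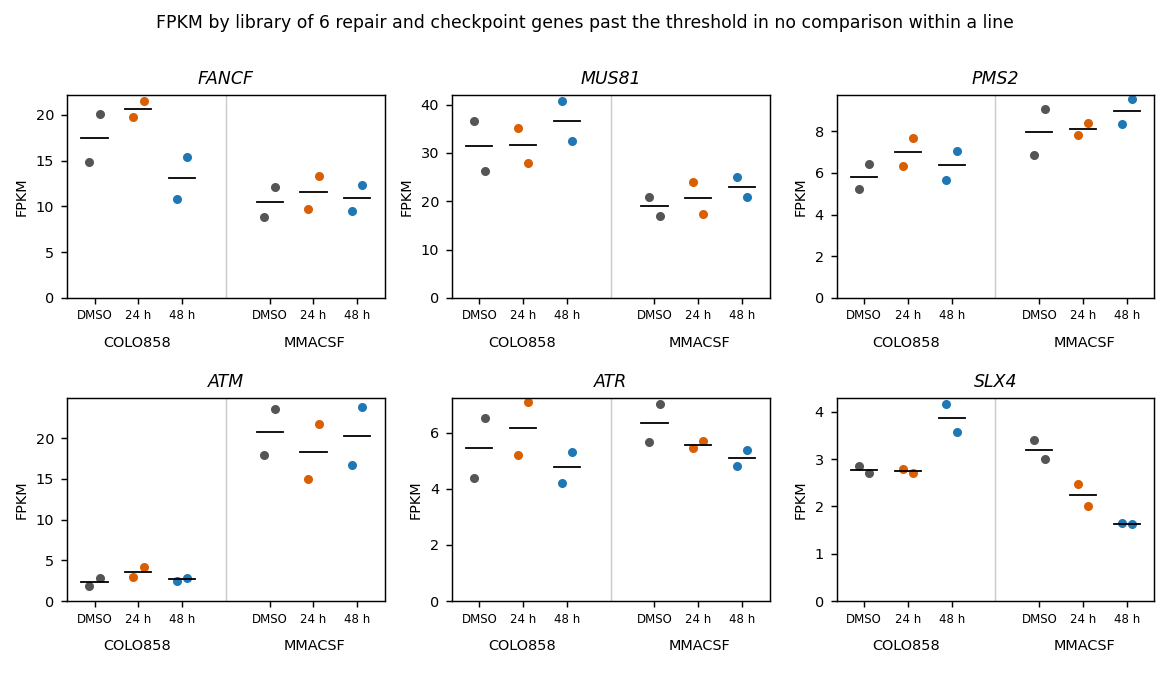
FPKM on linear axes that start at 0, with 1 point per library and the bar at the mean of 2 libraries, for FANCF, MUS81, PMS2, ATM, ATR and SLX4, which passed the threshold in no comparison within a line. Drug and DMSO points are interleaved for most of the 6, ATM is at 1.78 to 4.16 FPKM in COLO858 and 15.0 to 23.8 FPKM in MMACSF, and SLX4 points separate in opposite directions at 48 h.

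Across roles, 23 of the 40 genes passed the threshold in at least 1 comparison within a line and 17 in none, and 17.5% of the 11700 genes tested in both lines passed in at least 1. The 17 were FANCC, FANCF, FANCL, FANCM, BRCA2, PALB2, BRIP1, RAD54B, RMI1, MUS81, SLX4, MSH6, PMS2, ATR, ATM, TOPBP1 and TIPIN. At 24 h, 9 genes fell in both lines, which is 9 of the 21 called in COLO858 and 9 of the 10 called in MMACSF. They were BLM, CLSPN, EME1, EXO1, FANCD2, FANCI, RAD51AP1, RAD54L and TIMELESS. The overlap of calls between the lines was not counted over all tested genes, so this overlap cannot be set against a general one. RBBP8 was the gene called in MMACSF and not in COLO858, where it was at 38.1% of DMSO against 40.2% in MMACSF. The 40 genes ranged from 5.79% (FANCB) to 157% (ATM) of DMSO at 24 h in COLO858 and from 4.78% (EXO1) to 110% (FANCF) in MMACSF. FANCF, a core complex adaptor, was at 118% and 74.9% of DMSO in COLO858 and 110% and 105% in MMACSF.

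Between 24 and 48 h in drug, 5 of the 40 genes rose in COLO858 and 0 fell, against 1.17% of all tested genes called higher and 0.213% called lower. They were RMI2, RAD51AP1, FANCI, RAD54L and EME1, with log2 fold-changes of 2.58 ± 0.13, 2.34 ± 0.23, 2.19 ± 0.22, 2.07 ± 0.18 and 1.95 ± 0.17 and adjusted p of 0.00218, 0.00941, 0.00881, 0.00718 and 0.00748. RMI2 thus rose 9.17-fold in FPKM, from 1.55 ± 0.0933 FPKM to 14.2 ± 0.174 FPKM (SD, n = 2 each). EXO1 went from 0.561 and 0.991 FPKM to 5.27 and 7.38 FPKM without overlap, but did not pass the threshold (adjusted p = 0.0139). The median log2 fold-change of the 40 was 1.04, and in 33 of 40 genes both 48 h libraries were above both 24 h libraries, while over all tested genes this share was 20.1%. Leaving out any 1 of the 6 COLO858 libraries left 0 of the 5 calls, with adjusted p of 0.0150 to 0.0265 for RMI2.

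No such rise was seen in MMACSF. There 0 of 40 genes passed the limma threshold between 24 and 48 h in either direction, against 0.111% of all tested genes called lower and 0.111% called higher, and 2 of 40 had an unadjusted p under 0.05, against 6.98% of all tested genes. The median log2 fold-change was -0.11. The 3 genes with the largest change were MND1, TIMELESS and RAD54B, for which both 48 h libraries were below both 24 h libraries (adjusted p = 0.788, 0.285 and 0.889). Of the 40 genes 12 were lower at 48 h without overlap and 2 were higher, against 17.6% and 14.5% of all tested genes.

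The difference between the lines was tested directly, as the change in COLO858 minus the change in MMACSF. At 24 h 1 of 40 genes differed, RMI2, which fell further in COLO858 by -1.66 ± 0.19 on the log2 scale (adjusted p = 0.00162), while 1.93% of 13595 tested genes were called lower and 1.78% higher. At 48 h 8 of 40 genes had a higher change in COLO858 and 0 a lower one, against 4.19% called higher and 3.30% called lower among all tested genes. These were EXO1 (2.66 ± 0.32), RAD51AP1 (2.39 ± 0.39), EME1 (1.95 ± 0.26), RAD54L (1.94 ± 0.23), FANCI (1.69 ± 0.27), TIMELESS (1.49 ± 0.13), RMI2 (1.33 ± 0.19) and SLX4 (1.04 ± 0.17), with adjusted p of 0.000234 for TIMELESS to 0.00508 for SLX4. RMI2 therefore differed in opposite directions at the 2 times.

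SLX4, a scaffold for structure-specific nucleases, differed between the lines although it passed in neither line alone. It measured 2.86 and 2.70 FPKM under DMSO, 2.79 and 2.70 FPKM at 24 h and 4.16 and 3.57 FPKM at 48 h in COLO858. In MMACSF it measured 3.40 and 2.99 FPKM under DMSO, 2.47 and 2.01 FPKM at 24 h and 1.64 and 1.62 FPKM at 48 h. At 48 h both COLO858 libraries were above DMSO and both MMACSF libraries were below it. Its call was lost without any of 10 of the 12 libraries, with adjusted p up to 0.022.

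From 24 to 48 h, 9 of 40 genes changed more in COLO858 and 0 changed less, against 2.46% called higher and 0.508% called lower among all tested genes. They were RMI2 (2.99 ± 0.19), RAD51AP1 (2.58 ± 0.39), EME1 (2.29 ± 0.26), RAD54L (2.21 ± 0.23), FANCI (2.21 ± 0.27), EXO1 (2.16 ± 0.32), BLM (2.12 ± 0.30), BARD1 (1.81 ± 0.28) and TIMELESS (1.76 ± 0.13). The adjusted p ranged from 9.88e-05 for RMI2 to 0.00759 for BARD1. RMI2, RAD54L, EME1 and TIMELESS passed without any single library, and EXO1, RAD54L and TIMELESS did so for the difference at 48 h. At 48 h the count of 8 was 4 without COLO858 DMSO replicate 1, COLO858 48 h replicate 2 or MMACSF 48 h replicate 1, 3 without MMACSF DMSO replicate 2 and 5 without MMACSF 48 h replicate 2. From 24 to 48 h the count of 9 was 4 without COLO858 24 h replicate 1, COLO858 48 h replicate 2 or either MMACSF 48 h library, and 5 without COLO858 24 h replicate 2 or either MMACSF 24 h library.

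**Figure D4:**
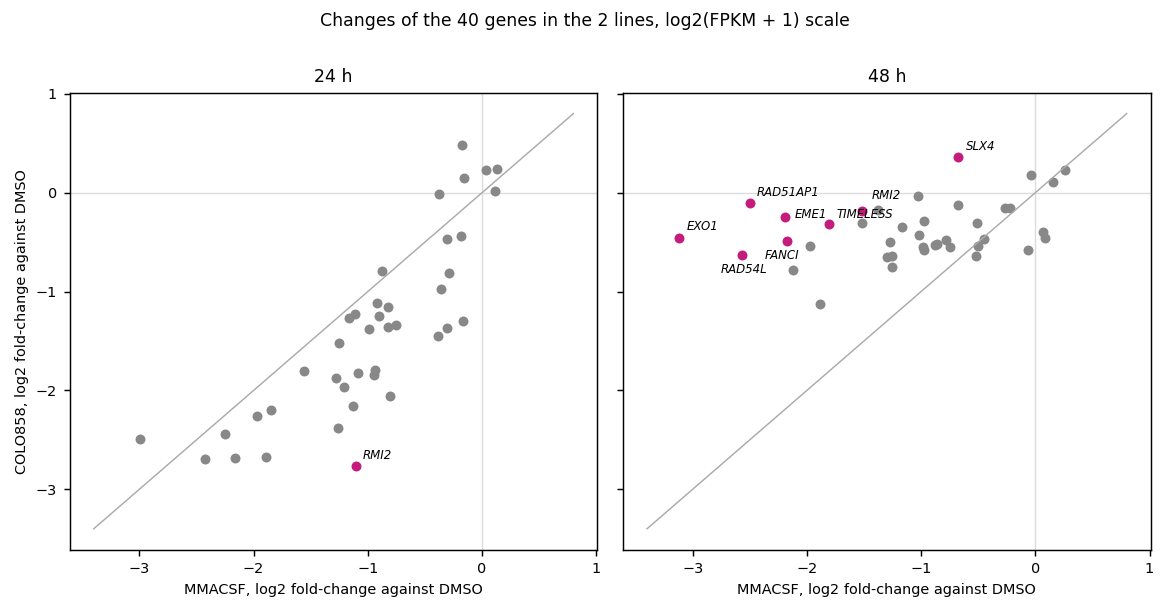
Log2 fold-change of each of the 40 genes against DMSO in COLO858 (vertical) and MMACSF (horizontal) at 24 h (left) and 48 h (right), on the log2(FPKM + 1) scale, with the line of equal change drawn and genes that differed between the lines colored and named. At 24 h most points lie near or under the line and RMI2 is colored, and at 48 h most lie above it, with EXO1 at -3.12 in MMACSF.

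Other genes of the same pathways gave fewer calls than the 40. Of 41 further genes of Fanconi repair, recombination, mismatch repair and checkpoint, 40 were tested. In COLO858 7 fell at 24 h, against 5.71% of all tested genes called lower, and 0 passed the limma threshold at 48 h. At 48 h 9 had an unadjusted p under 0.05, all of them lower, against 2603 lower and 2391 higher of all 12696 tested genes. In MMACSF 3 fell at 24 h and 6 at 48 h, against 3.60% and 5.41% of all tested genes called lower. Of the further genes 0 were called higher in these 4 comparisons. Among the 7 were UBE2T, POLQ, MCM8, RPA2, RPA3 and STRA13, and the median log2 fold-change of the further genes tested was -0.54. UBE2T, whose fall at 24 h in COLO858 is given above, was at 46.9 and 55.8 FPKM at 48 h there, between the 24 h and the DMSO libraries. In MMACSF UBE2T measured 57.7 and 63.7 FPKM under DMSO, 8.62 and 9.45 FPKM at 24 h and 3.78 and 6.26 FPKM at 48 h. It rose from 24 to 48 h in COLO858 (2.36 ± 0.20 on the log2 scale, adjusted p = 0.00686), and its change at 48 h differed between the lines by 2.47 ± 0.31 (adjusted p = 0.00135).

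Counting could not be assigned with certainty for part of the genes, since the strand setting and annotation used by the authors are not stated. In GENCODE on GRCh37, 17 of the 40 genes overlap a coding gene on the opposite strand, among them FANCI with POLG, RAD54L with LRRC41 and RMI2 with SOCS1. A further overlap on the same strand was annotated for 4 genes, including RAD54B with FSBP and CHEK1 with STT3A. Named pseudogenes exist for 7, with 14 entries for PMS2, 8 for CHEK2 and 1 each for FANCD2, BRCA1, RBBP8, RAD51AP1 and TIPIN, so reads of these genes may be shared with near copies.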

How the data were processed

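RNA of 12 libraries was measured by single-read sequencing of stranded mRNA libraries. Per the study's methods, the authors aligned them to hg19 using TopHat with its defaults, and the deposited FPKM values came from Cuffdiff run on Galaxy. Their versions, annotation, strand setting and library scaling are not given in the sources used here. Each line has its own table, and all 12 columns were used. Whole reads could not be recovered from the FPKM, so depth is unknown.

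A separate limma (3.58.1, R 4.3.3) model of 3 groups was used for each line, on log2(FPKM + 1) with trended empirical Bayes moderation. A gene entered if 1 or more of its group means reached 1 FPKM, and tests were two-sided with Benjamini-Hochberg adjustment over all of them and a threshold of 0.01. Differences between the lines were interaction contrasts over 12 libraries and 6 groups. A fold-change on the log2(FPKM + 1) scale understates the change of low genes, and percentages of DMSO are ratios of mean FPKM. The procedure was also run on simulated data with planted changes and independent noise in each library. That run cannot show how the procedure handles a shift shared by same-numbered libraries.

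Values in every library are given for the 5 genes with the largest change at 24 h in each line, the 5 (COLO858) or 3 (MMACSF) with the largest change from 24 to 48 h, the 3 with the largest difference between the lines at 48 h, the gene with the highest DMSO mean in each line, and any past the threshold against the median direction, of which there was none. Other genes given by library were chosen after their values were seen. The 40 genes and all lists were chosen with earlier results of these data known. Lists and roles come from general knowledge, and were described by counts and medians without a list test. Alternatives were adding 0.1 FPKM, no minimum, an adjusted p threshold of 0.05, median-ratio rescaling, a replicate block, and leaving out each library in turn. Some genes of the pathways are not reported here by name.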

Additional observations from a re-analysis of the deposited data

Results flagged for a closer look

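The change against DMSO differed between COLO858 and MMACSF by the interaction test for 1 gene at 24 h and for 8 at 48 h, and the change from 24 to 48 h differed for 9, each value being the COLO858 change minus the MMACSF change on the log2(FPKM + 1) scale. RMI2, a subunit of the BLM dissolution complex, differed in all 3, by -1.66 at 24 h, 1.33 at 48 h and 2.99 from 24 to 48 h. Relative to DMSO it was thus lower in COLO858 than in MMACSF at 24 h and higher than in MMACSF at 48 h. At 48 h it was still below DMSO in both lines, at 86.9% in COLO858 and 21.9% in MMACSF.

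For the resection nuclease EXO1 the differences were 2.66 at 48 h and 2.16 from 24 to 48 h. For the recombination genes RAD51AP1 and RAD54L they were 2.39 and 1.94 at 48 h, and 2.58 and 2.21 from 24 to 48 h. For EME1, FANCI and TIMELESS they were 1.95, 1.69 and 1.49 at 48 h, and 2.29, 2.21 and 1.76 from 24 to 48 h. SLX4 differed at 48 h alone by 1.04, and BLM and BARD1 from 24 to 48 h alone by 2.12 and 1.81. MKI67, a marker of cycling cells, differed in the same direction by 2.87 at 48 h and 2.83 from 24 to 48 h, and its part in these differences was not tested. Groups of 2 libraries are too small to search for a library that stands apart.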

How the results depend on the processing

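Across the alternatives run, 0 of the called or rule-named results reversed. With an adjusted p threshold of 0.05, the count of the 40 genes called in COLO858 was 2 at 48 h against DMSO and 20 from 24 to 48 h. Over all 12696 tested genes it was 3298 and 809, in either direction. In MMACSF it was 25 at 24 h and 27 at 48 h, against 2561 and 3038 of all 12599. For the difference between the lines it was 3 at 24 h and 18 from 24 to 48 h, against 1227 and 864 of all 13595. Without a minimum FPKM, 1 gene was called from 24 to 48 h in COLO858. Median-ratio rescaling gave 1 call at 48 h and 10 from 24 to 48 h in COLO858, and 14 for the difference from 24 to 48 h. Adding 0.1 FPKM in place of 1 kept every count within 1.5 times and moved 7 of 9 medians of the 40 genes. Leaving out 1 library at a time gave 1 to 11 calls at 24 h and 0 from 24 to 48 h in COLO858, 0 to 1 at 24 h and 0 to 8 at 48 h in MMACSF, and 3 to 8 at 48 h and 4 to 10 from 24 to 48 h for the difference between the lines.

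The replicate numbers share a number across the groups of a line, and the labels give no shared batch. Deviations of same-numbered libraries correlated at 0.196 to 0.211 across all tested genes in COLO858 and 0.0628 to 0.113 in MMACSF, and at 0.658 to 0.782 and 0.364 to 0.518 across the 40 genes alone. With 2 numbers per group and no label that ties them, whether they pair the plates is not established. Replicate 2 was above replicate 1 for 27 to 35 of the 40 genes per group. With a replicate block the counts were 33 at 24 h, 17 at 48 h and 28 from 24 to 48 h in COLO858, 22 at 24 h, 25 at 48 h and 0 from 24 to 48 h in MMACSF, and 9 (8 lower and 1 higher), 14 and 25 for the difference between the lines at 24 h, at 48 h and from 24 to 48 h. Calls over all tested genes with a replicate block are not given, so the gain among the 40 cannot be set against them. The cause of these differences between settings was not tested. Depth is unknown, so what it limits cannot be stated.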

Other observations

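Nonhomologous end joining, which ligates broken ends without a template, was followed in 7 genes, XRCC4, XRCC5, XRCC6, LIG4, NHEJ1, PRKDC and DCLRE1C, that are not among the 40. XRCC4, the partner of DNA ligase IV, measured 17.03 and 24.5 FPKM under DMSO, 5.15 and 5.17 FPKM at 24 h and 5.97 and 7.005 FPKM at 48 h in COLO858. In MMACSF it measured 6.57 and 7.65 FPKM under DMSO, 8.57 and 10.6 FPKM at 24 h and 10.6 and 8.99 FPKM at 48 h. It fell in COLO858 at both times (log2 fold-change -1.80 ± 0.21 and -1.52 ± 0.21, adjusted p = 0.00453 and 0.00755) and was above both DMSO libraries in every drug library of MMACSF without passing the threshold (adjusted p = 0.175 and 0.142). COLO858 minus MMACSF came to -2.18 ± 0.27 at 24 h and -1.93 ± 0.27 at 48 h (adjusted p = 0.00224 and 0.00211), opposite in sign at 48 h to that of the 8 recombination and checkpoint genes that differed then. XRCC6, a Ku subunit, fell at 48 h in MMACSF (-0.76 ± 0.11, adjusted p = 0.00819), and the other 5 genes passed in no comparison with DMSO. XRCC6 was at 64.9% and 58.9% of DMSO after 24 and 48 h in MMACSF. In COLO858 it was at 60.4% and 63.8%, below both DMSO libraries in every drug library, without passing the threshold.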
